A study of Mus musculus with 8 samples.

Results

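FGF ligands, FGF receptors and an FGF binding protein were compared between 2D and 3D cultures of mouse adipose-derived stem cells (ADSCs). The 10 genes were taken by symbol from the 24346 genes listed for each library, and they comprise 5 ligands (Fgf1, Fgf2, Fgf7, Fgf10 and Fgf18), 4 receptors (Fgfr1, Fgfr2, Fgfr3 and Fgfr4) and the binding protein gene Fgfbp1. All 10 were above 0 in at least 1 library and were therefore tested. Total RNA from primary cultures of wild-type BALB/c mice was sequenced, with 1 library per mouse and culture. The cells came from the gonadal fat of adult males, were released with collagenase, and are labelled as mesenchymal stem cells. The 4 libraries of the 2D cultures came from mice 2, 3, 4 and 5. The 4 libraries of the 3D cultures, grown in Matrigel as organoids, came from mice 1, 4, 5 and 7, and only mice 4 and 5 were thus sequenced in both cultures. Neither a sort of the cells before culture nor the medium, passage or FGF content of the sequenced cultures is given in the sources used here. Levels are FPKM (fragments scaled to transcript length and library size) after quantile normalization. Unless stated otherwise, values are given in the order of mice 2, 3, 4 and 5 for 2D and of mice 1, 4, 5 and 7 for 3D.

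Secreted FGFs bind receptor tyrosine kinases at the cell surface together with heparan sulfate, and the activated receptors signal through the adaptor Frs2 and the ERK kinases. The same pathway induces its own inhibitors, among them the Sprouty and Spred proteins and the ERK phosphatase Dusp6. Mesenchymal cells typically carry receptor forms that respond to Fgf2, an established growth factor for cultured stromal cells, whereas epithelia carry splice forms of Fgfr2 that respond to Fgf7 and Fgf10 from the neighbouring mesenchyme. In adipose tissue, Fgf10 is needed for the growth of fat precursors, and Fgf1 takes part in the remodelling of fat.

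The ligands and receptors changed in both directions. In the 3D cultures Fgf2 and Fgf7 were near 0 and Fgfr1 was lower, whereas Fgf1, Fgfr2, Fgfr3, Fgfr4 and Fgfbp1 were higher. A gene was called when its limma p was under 0.05 after Benjamini-Hochberg adjustment for all 18862 genes tested, at any fold. Of the 5 ligands, 1 was called higher and 2 lower in 3D, and the remaining 2 were not called. Of the 4 receptors, 3 were called higher and 1 lower. Together with Fgfbp1, 8 of the 10 genes were called, 5 higher and 3 lower, and in these 8 the libraries of the cultures did not overlap. Over all genes tested, 7823 (41.5%) were called, 4000 higher (21.2%) and 3823 lower (20.3%), and the libraries of 8015 genes (42.5%) did not overlap. Among genes averaging 1 FPKM or more, 7003 of 12577 were called, and 7 of the 8 FGF genes kept there. The 10 genes were chosen with earlier results of these data known, so that these counts are no test of the group. The fitted log2 fold change, 3D minus 2D, had a median of -1.61 over the ligands and 2.06 over the receptors, beside 0.0012 over all genes tested. The ligand median is the value of Fgf18, which was not called and ran from -2.30 to -0.30 over the alternatives. Fewer cells that express a gene and less RNA per cell cannot be told apart in these bulk samples.

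The libraries were not alike within a culture. The 2D libraries of mice 3 and 4 held mesothelial markers, with the 6 genes Msln, Upk3b, Upk1b, Lrrn4, Wt1 and Gpm6a summing to 824 and 2122 FPKM, against 1.99 and 0.525 FPKM in those of mice 2 and 5. The 3D library of mouse 1 held far higher FPKM than the other 3D libraries for Fgf1, Fgfr1 and Fgfr3. The short description of that library does not name its culture, as those of the others do, and its title, which names 3D, was used.

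**Figure D1:**
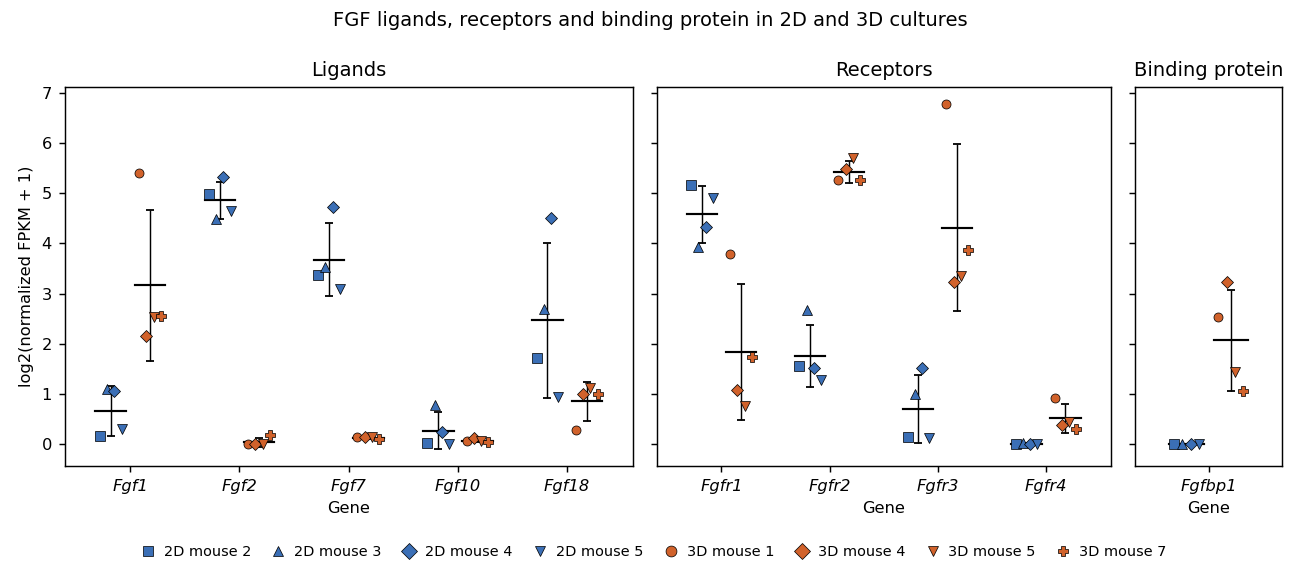
Levels of the 10 genes as log2(normalized FPKM + 1), with 1 point per library, blue for 2D and orange for 3D, and the mean and SD of the 4 libraries of each culture as lines. Fgf2 and Fgf7 lie near 0 in all 3D libraries, Fgfr2 lies at 37.1 to 51.1 FPKM in 3D against 1.44 to 5.38 FPKM in 2D, and among the 3D libraries that of mouse 1 is the highest for Fgf1, Fgfr1, Fgfr3 and Fgfr4.

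Fgf2 (GRCm38, chr3:37348346-37410108, plus strand), a ligand without a classical secretion signal, was at 30.7, 21.3, 38.8 and 23.9 FPKM in the 2D libraries and at 0, 0, 0 and 0.134 FPKM in the 3D libraries. It was thus the most abundant of the 5 ligands on average in 2D and was listed at 0 in every 3D library but that of mouse 7. The log2 fold change was -4.81 (SE 0.20, 95% interval -5.28 to -4.34, adjusted p = 2.2e-06), a size that depends on the 1 added to each FPKM because the 3D values are at or near 0. The exons of Fgf2 overlap those of Nudt6 on the opposite strand, which was deposited at 15.7 to 27.2 FPKM in 2D and at 3.47 to 5.49 FPKM in 3D. The library kit keeps the strand, but whether the counting used it is not given in the sources used here, so that the 2D level of Fgf2 is uncertain to that extent. In 3D, Nudt6 was above 0 where Fgf2 was listed at 0.

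Fgf7 (chr2:126034658-126091185, plus strand), a secreted factor that acts on epithelia, was at 9.30, 10.5, 25.5 and 7.50 FPKM in 2D and at 0.104, 0.110, 0.103 and 0.0778 FPKM in 3D. All 4 2D libraries lay above all 4 3D libraries. Its log2 fold change was -3.54 (SE 0.34, 95% interval -4.33 to -2.75, adjusted p = 1.5e-04), and with 0.1 added in place of 1 it was -5.90. At an estimated depth of 14.6 M to 15.6 M fragments, the 3D values of Fgf7 rest on about 2.64 to 6.22 fragments per library.

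Fgf1 (chr18:38838673-38929472, minus strand), which binds all 4 receptors, went the other way, with 0.121, 1.15, 1.10 and 0.240 FPKM in 2D and 41.4, 3.44, 4.83 and 4.87 FPKM in 3D. Every 3D library exceeded every 2D library, but the 3D library of mouse 1 was far above the other 3D libraries, and within 2D the libraries of mice 3 and 4 were the high ones. The log2 fold change was 2.50 (SE 0.71, 95% interval 0.85 to 4.15, adjusted p = 0.024). Leaving out the 3D library of mouse 1 gave 1.76 (adjusted p = 0.0030), and the call was lost with only mice 4 and 5 (adjusted p = 0.062), without the 2D library of mouse 2 (adjusted p = 0.061), without that of mouse 5 (adjusted p = 0.059) and without both those of mice 3 and 4 (log2 fold change 2.93, adjusted p = 0.054). Over all 17 alternatives the adjusted p of Fgf1 ran from 0.0011 to 0.203.

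Fgf18 (chr11:33117430-33147400, minus strand), known for its part in skeletal growth, was at 2.28, 5.45, 21.8 and 0.932 FPKM in 2D and at 0.222, 1.01, 1.19 and 0.997 FPKM in 3D. The cultures overlapped, since the 2D library of mouse 5 lay within the range of the 3D libraries, and the log2 fold change of -1.61 (SE 0.71, adjusted p = 0.11) did not pass. It was called without that 2D library (adjusted p = 0.039, range over all 17 alternatives 0.039 to 0.48), and leaving out the 2D library of mouse 4, or those of mice 3 and 4, gave a log2 fold change of -0.94 or -0.49.

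Fgf10 (chr13:118669791-118792115, plus strand) was low in both cultures, at 0.0265, 0.733, 0.192 and 0 FPKM in 2D and at 0.0480, 0.0864, 0.0464 and 0.0291 FPKM in 3D. Only the 2D libraries of mice 3 and 4 exceeded the 3D range. With a log2 fold change of -0.20 (SE 0.16, 95% interval -0.58 to 0.18, adjusted p = 0.38), no difference was detectable, and the 3D values rest on an estimated 1.78 to 6.27 fragments. The sign turned to a log2 fold change of 0.053 without the 2D libraries of mice 3 and 4.

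The ligands thus stood in a different order in the cultures. By mean FPKM in 2D the order was Fgf2 (28.7), Fgf7 (13.2), Fgf18 (7.63), Fgf1 (0.653) and Fgf10 (0.238). Each neighbouring pair overlapped between libraries, while within each 2D library the order was the same. By mean FPKM in 3D the order was Fgf1 (13.6), Fgf18 (0.853), Fgf7 (0.0986), Fgf10 (0.0525) and Fgf2 (0.0335). The Fgf1 mean includes 41.4 FPKM in the library of mouse 1, against 3.44 to 4.87 FPKM in mice 4, 5 and 7. In 3D, all libraries of Fgf1 lay above those of Fgf18 and all of Fgf18 above those of Fgf7. The last 3 ligands overlapped their neighbours. Of the summed FPKM of the 5 ligands, Fgf2 held 44.4% to 73.4% in the 2D libraries, and Fgf1 held 74.1% to 99.1% in the 3D libraries. This sum was 32.6 to 87.5 FPKM in 2D and 4.64 to 41.8 FPKM in 3D, where the highest value belonged to mouse 1.

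Among the receptors, Fgfr1 (chr8:25513654-25575718, plus strand), the main receptor of mesenchymal cells, was at 35.0, 14.2, 19.0 and 29.0 FPKM in 2D and at 12.8, 1.13, 0.708 and 2.32 FPKM in 3D. The cultures did not overlap, although the 3D library of mouse 1 came close to the 2D library of mouse 3. The log2 fold change was -2.74 (SE 0.65, 95% interval -4.25 to -1.22, adjusted p = 0.012) and was -3.43 without the 3D library of mouse 1 (adjusted p = 5.3e-04, range over all 17 alternatives 5.3e-04 to 0.113).

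Fgfr2 (chr7:130162451-130266808 in RefSeq, minus strand), whose epithelial splice form responds to Fgf7 and Fgf10, was at 1.94, 5.38, 1.86 and 1.44 FPKM in 2D and at 37.3, 43.6, 51.1 and 37.1 FPKM in 3D. It was high in all 3D libraries alike, that of mouse 1 included, and low in all 2D libraries. The fitted difference was a log2 fold change of 3.67 (SE 0.30, 95% interval 2.97 to 4.36, adjusted p = 6.6e-05). Splice forms were not analysed here, because the values are summed per gene. A long annotated transcript of Fgfr2 shares exons with Ctbp2, which was deposited at 24.2 to 37.9 FPKM in 2D and at 32.9 to 44.6 FPKM in 3D.

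Fgfr3 (chr5:33721674-33737068, plus strand), a receptor best known from cartilage and epithelia, was at 0.112, 1.01, 1.87 and 0.0982 FPKM in 2D and at 108, 8.44, 9.21 and 13.7 FPKM in 3D. All 3D libraries were above all 2D libraries, and the level of mouse 1 was again far above the others in 3D. The log2 fold change was 3.60 (SE 0.80, 95% interval 1.74 to 5.47, adjusted p = 0.0087). Leaving out the 3D library of mouse 1 gave 2.80 (adjusted p = 0.0016), leaving out the 2D libraries of mice 3 and 4 gave 4.16 (adjusted p = 0.024), and mice 4 and 5 alone gave 2.47, where the call was lost (adjusted p = 0.063, range over all 17 alternatives 6.4e-04 to 0.172).

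Fgfr4 (chr13:55152640-55168759, plus strand), the receptor best known from the liver, was at 0, 0.0185, 0 and 0 FPKM in 2D and at 0.902, 0.310, 0.362 and 0.235 FPKM in 3D. Its only 2D value above 0, that of mouse 3, corresponds to an estimated 1.08 fragments, while the 3D values correspond to 11.8 to 62.6 fragments. The log2 fold change was 0.51 (SE 0.13, 95% interval 0.22 to 0.80, adjusted p = 0.014), which understates the change of so low a gene because 1 was added to each FPKM. Leaving out the 3D library of mouse 1 gave 0.35. The gene was not called without the 2D libraries of mice 3 and 4 (adjusted p = 0.069, range over all 16 alternatives that kept it 4.5e-04 to 0.111).

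**Figure D2:**
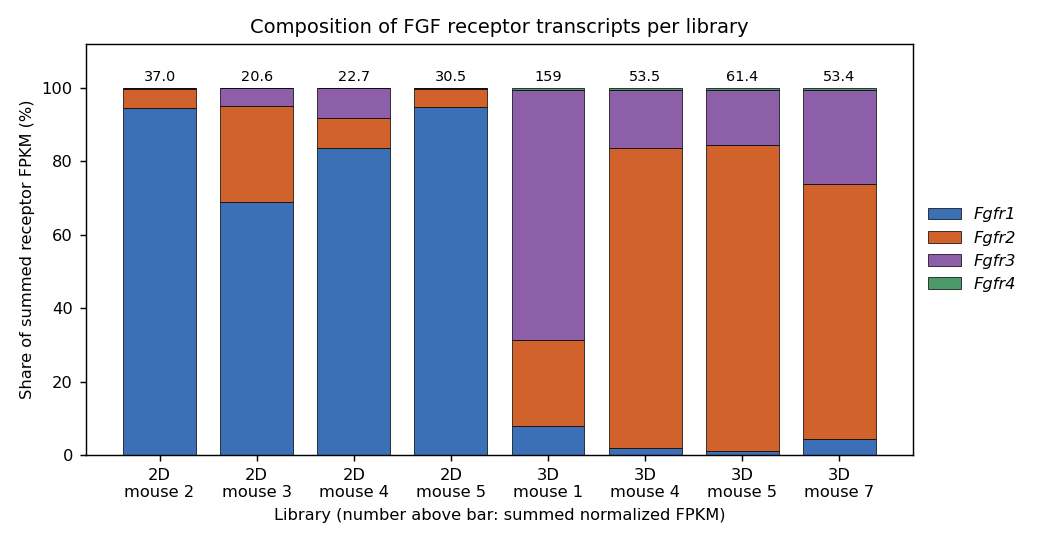
Share of each receptor in the summed normalized FPKM of the 4 receptors, in percent, with 1 bar per library and the sum in FPKM above it. Fgfr1 makes up 68.9% to 95.0% in the 2D libraries and 1.15% to 8.02% in the 3D libraries, where Fgfr2 leads in mice 4, 5 and 7 and Fgfr3 in mouse 1.

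The make-up of the receptor transcripts therefore differed between the cultures in each library, as the plot of receptor shares shows. Fgfr1 held 68.9% to 95.0% of the summed receptor FPKM in 2D and 1.15% to 8.02% in 3D. Fgfr2 held 4.72% to 26.1% in 2D, and in 3D it held 81.5%, 83.2% and 69.6% in mice 4, 5 and 7 but 23.4% in mouse 1. Fgfr3 held 0.302% to 8.25% in 2D and 15.0% to 68.0% in 3D, with the highest share in mouse 1. The summed level was 20.6 to 37.0 FPKM in 2D and 53.4 to 159 FPKM in 3D. By mean FPKM the order in 2D was Fgfr1 (24.3), Fgfr2 (2.65), Fgfr3 (0.774) and Fgfr4 (0.0046), where Fgfr2 and Fgfr3 overlapped. In 3D it was Fgfr2 (42.3), Fgfr3 (34.9), Fgfr1 (4.23) and Fgfr4 (0.452), where all neighbours overlapped through the library of mouse 1. In the 3D libraries of mice 4, 5 and 7 no neighbours overlapped. There, Fgfr2 was at 37.1 to 51.1 FPKM and Fgfr3 at 8.44 to 13.7 FPKM. Fgfr1 was at 0.708 to 2.32 FPKM and Fgfr4 at 0.235 to 0.362 FPKM.

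Fgfbp1 (chr5:43978858-43981779, minus strand) encodes a carrier that releases FGFs from the matrix and is typical of epithelia. Every 2D library listed it at 0, and the 3D libraries held 4.83, 8.42, 1.71 and 1.09 FPKM in 3D. With 3 fragments as the limit, which correspond to 0.149 to 0.158 FPKM in the 2D libraries, its deposited level was at least 27.4-fold higher in 3D (18.1-fold without the 3D library of mouse 4). The fitted log2 fold change was 2.07 (SE 0.45, 95% interval 1.03 to 3.11, adjusted p = 0.0076). The call was lost with only mice 4 and 5 (adjusted p = 0.0999) and without the 2D libraries of mice 3 and 4 and the 3D library of mouse 1 (adjusted p = 0.086, range over all 17 alternatives 3.0e-04 to 0.199).

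Promoter sequences are shown for Fgf2 and Fgf7, which fell, and for Fgfr3 and Fgfbp1, which rose. They come from RefSeq (GRCm38.p6), run from 250 bases before to 50 bases after the start annotated for the entry, and read 5′ to 3′ on the strand of the gene. For Fgf2 and Fgfbp1 that start lies inside the gene as listed by RefSeq, which begins at 37348477 for Fgf2 and at 43981828 for Fgfbp1. Entries were found for 8 of the 10 genes, with 2 starts for Fgfr3, of which the upstream one is printed. Capitals mark a GC box (GGGCGG, or CCGCCC on the other strand) or a TATA box (TATAAA). The windows are chr3:37348403-37348702 (plus strand) for Fgf2, chr2:126034408-126034707 (plus strand) for Fgf7, chr5:33721474-33721773 (plus strand) for Fgfr3 and chr5:43981750-43982049 (minus strand) for Fgfbp1.
Fgf2: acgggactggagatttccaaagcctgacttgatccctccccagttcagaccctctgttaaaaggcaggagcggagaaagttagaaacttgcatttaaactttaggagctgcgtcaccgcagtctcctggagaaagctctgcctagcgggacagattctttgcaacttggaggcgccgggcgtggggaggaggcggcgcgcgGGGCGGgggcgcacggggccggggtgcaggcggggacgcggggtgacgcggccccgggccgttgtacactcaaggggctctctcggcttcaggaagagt
Fgf7: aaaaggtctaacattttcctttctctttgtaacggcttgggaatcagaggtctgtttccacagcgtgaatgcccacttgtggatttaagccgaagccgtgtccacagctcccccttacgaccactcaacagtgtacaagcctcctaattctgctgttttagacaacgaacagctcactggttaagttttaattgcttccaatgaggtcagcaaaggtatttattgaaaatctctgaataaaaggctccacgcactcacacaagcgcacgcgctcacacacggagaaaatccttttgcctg
Fgfr3: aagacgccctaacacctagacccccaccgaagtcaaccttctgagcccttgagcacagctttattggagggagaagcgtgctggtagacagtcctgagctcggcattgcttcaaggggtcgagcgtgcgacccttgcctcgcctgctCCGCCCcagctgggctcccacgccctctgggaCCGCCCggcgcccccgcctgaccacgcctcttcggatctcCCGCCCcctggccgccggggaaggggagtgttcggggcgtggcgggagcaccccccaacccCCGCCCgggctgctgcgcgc
Fgfbp1: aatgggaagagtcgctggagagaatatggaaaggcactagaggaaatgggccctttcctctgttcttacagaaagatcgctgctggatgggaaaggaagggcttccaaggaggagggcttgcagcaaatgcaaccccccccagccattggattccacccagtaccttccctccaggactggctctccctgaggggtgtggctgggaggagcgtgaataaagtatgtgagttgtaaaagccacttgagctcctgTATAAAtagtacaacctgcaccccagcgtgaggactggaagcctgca

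The window of Fgfr3 held 4 GC boxes and that of Fgf2 held 1, while those of Fgf7 and Fgfbp1 held none. A GC box was present in 35.7% of the 32851 promoter windows of the same length. The TATA box of Fgfbp1 begins at base 4 after the start used for its window, and this motif was present in 13.6% of all windows. The gene begins at 43981828 in RefSeq and at 43981779 in the position given above, so that its place relative to the start depends on the annotation. The windows of Fgfr3 and Fgf2 were 69.7% and 62.7% G and C, those of Fgfbp1 and Fgf7 53.3% and 45.7%, beside a median of 52.7% over all windows. On both strands, an E-box (CAGGTG), a palindrome bound by Grainyhead-like factors (AACCGGTT) and an AP-1 motif (TGANTCA) were searched as well. None of these 3 was in the windows of the 8 genes, and they were present in 20.2%, 0.146% and 7.81% of all windows.

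**Figure D3:**
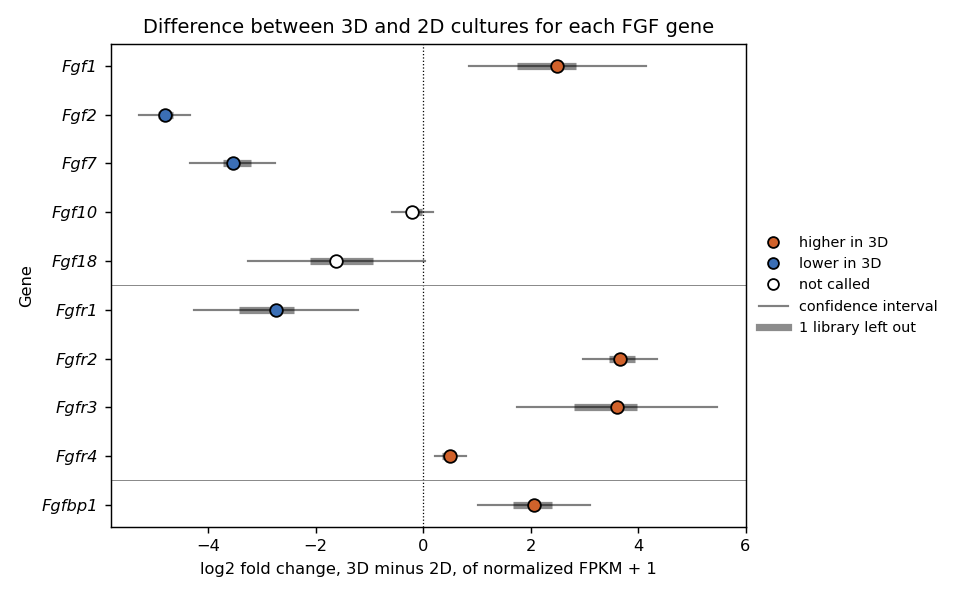
Fitted log2 fold change, 3D minus 2D, of normalized FPKM + 1 for each gene, with its 95% interval as a thin line and the range over the fits with 1 library left out as a thick line. Filled points are called, orange higher and blue lower in 3D. Fgf2 lies lowest at -4.81 and Fgfr2 highest at 3.67, and Fgf10 and Fgf18 are not called.

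Mice 4 and 5, which gave both cultures, allow the difference to be read within a mouse. From 2D to 3D, log2(FPKM + 1) of Fgf2 fell by 5.32 in mouse 4 and fell by 4.64 in mouse 5. For Fgfr1 the within-mouse differences were -3.23 and -4.14, for Fgfr2 they were 3.96 and 4.42, and for Fgfr3 they were 1.72 and 3.22. Fgf18 differed between the mice, at -3.51 in mouse 4 and 0.18 in mouse 5. With the mouse number as a block, the fit rests on these mice and has 1 residual degree of freedom, and limma called 0 of the 18862 genes and 0 of the 10 genes. At an unadjusted p under 0.05 it had 5216 of all genes and 6 of the 10, namely 2 ligands and 4 receptors, and the lowest adjusted p among the 10 was 0.111.

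The other genes of the pathway were taken from 7 lists with 68 genes, of which 5 were listed at 0 in every library (Fgf4, Fgf6, Fgf8, Fgf20 and Spry3). Of the 63 tested, 14 were called higher and 15 lower in 3D and 34 were not called, shares near those over all genes. Among the other secreted FGFs, 1 of 9 tested was called. This was Fgf9, at 0.0279, 0, 0.133 and 0 FPKM in 2D and at 9.47, 8.85, 7.11 and 10.8 FPKM in 3D. Fgf9, an FGF of epithelia and mesothelia in the embryo, was thus near 0 in every 2D library and similar in all 3D libraries (log2 fold change 3.26, SE 0.15, adjusted p = 3.9e-06). In 3D, Fgf9 was above Fgf1 in mice 4, 5 and 7 and below it in mouse 1. Of the 4 intracellular FGF homologues, which are not secreted and do not act through the receptors in the usual way, Fgf11 rose from 0.313 to 0.630 FPKM in 2D to 1.89 to 2.67 FPKM in 3D (adjusted p = 1.7e-04). Fgf12 was also called (adjusted p = 0.0078) but stayed at or below 0.208 FPKM in every library, and its call was lost with only mice 4 and 5 (adjusted p = 0.051) and without the 2D libraries of mice 3 and 4 (adjusted p = 0.052, range over all 16 alternatives that kept it 0.0035 to 0.118).

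**Figure D4:**
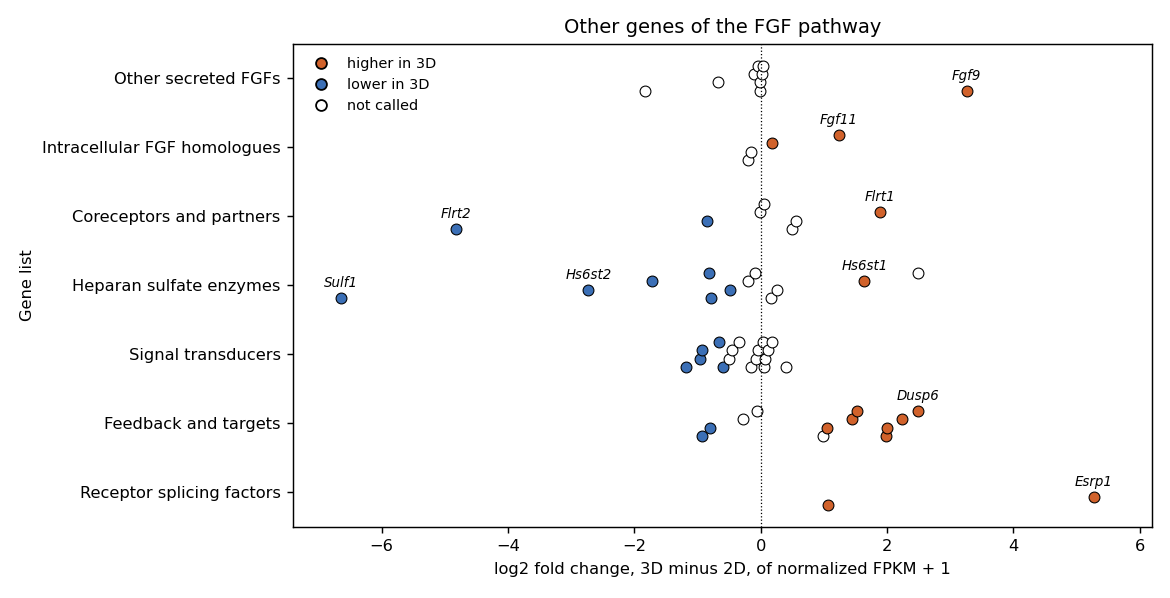
Fitted log2 fold change, 3D minus 2D, of normalized FPKM + 1 for the 63 tested genes of the 7 other pathway lists, with 1 point per gene, orange when called higher, blue when called lower and white when not called. Called transducers and most called heparan sulfate enzymes lie left of 0, and most called feedback and target genes lie right of it.

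Of 7 coreceptors and partners, 1 was called higher and 2 lower, beside 21.2% higher and 20.3% lower over all genes tested. Flrt2, a membrane protein of mesenchymal cells that can bind FGF receptors, was at 29.5, 34.2, 16.8 and 35.1 FPKM in 2D and at 0.0028, 0, 0.0145 and 0.0558 FPKM in 3D (log2 fold change -4.82, adjusted p = 5.0e-06). Its relative Flrt1 moved the opposite way, from 0.111, 0.847, 0.277 and 0.129 FPKM to 1.95, 3.26, 5.89 and 5.47 FPKM (log2 fold change 1.89, adjusted p = 0.0021). Fgfbp3, a further binding protein, had a mean of 3.08 ± 1.03 FPKM in 2D and 1.25 ± 0.484 FPKM in 3D (SD, n = 4 each, adjusted p = 0.028), and its libraries overlapped and 8 of 17 alternatives lost the call.

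Heparan sulfate is the cofactor of FGF binding. Of 12 genes for its synthesis and editing, 6 were called lower and 1 higher, with a median log2 fold change of -0.34. Over all genes tested, 20.3% were called lower and 21.2% higher. Sulf1, which removes sulfate groups that FGF binding needs, was at 65.7, 139.8, 128 and 82.3 FPKM in 2D and was listed at 0 in all 4 3D libraries. Against the FPKM of 3 fragments its deposited level was at least 2679-fold lower in 3D, and the fitted log2 fold change was -6.65 (adjusted p = 1.1e-06). The sulfotransferase Hs6st2 was at 63.6, 121, 84.3 and 67.4 FPKM in 2D and at 39.0, 6.08, 10.7 and 6.22 FPKM in 3D. Its level in the 3D library of mouse 1 was the highest of that culture, and the log2 fold change was -2.73 (adjusted p = 0.0057) with that library and -3.34 without it. Hs6st1, of the same enzyme family, was the only one called higher, at 37.0, 20.9, 14.2 and 25.3 FPKM in 2D and at 70.5, 74.7, 73.3 and 77.2 FPKM in 3D (log2 fold change 1.64, adjusted p = 0.0015). Of the chain-building enzymes, Ext1 was lower in 3D, with means of 76.9 ± 5.33 FPKM in 2D and 44.2 ± 5.46 FPKM in 3D (SD, n = 4 each, adjusted p = 5.8e-04), a call lost with only mice 4 and 5 (adjusted p = 0.066, range over all 17 alternatives 5.9e-05 to 0.137). Ext2, with means of 57.5 ± 4.04 and 54.4 ± 7.18 FPKM, was not called (adjusted p = 0.54), but it was called lower in the values as deposited (adjusted p = 0.011, range over all 17 alternatives 0.011 to 0.85).

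Of 17 transducers that carry the signal from the receptors to ERK, 0 were called higher and 5 lower. Beside them, 21.2% of all genes tested were called higher and 20.3% lower. The median log2 fold change of the transducers was -0.16, and most of them were not called. The adaptor gene Frs2 had means of 19.6 ± 2.41 FPKM in 2D and 9.65 ± 1.39 FPKM in 3D (SD, n = 4 each, adjusted p = 7.7e-04), and its call was lost with only mice 4 and 5 (adjusted p = 0.056, range over all 17 alternatives 4.6e-04 to 0.151). The phosphatase gene Ptpn11 had means of 64.8 ± 3.02 and 40.6 ± 3.06 FPKM (adjusted p = 3.0e-04), and the kinase gene Map2k1 had means of 84.7 ± 3.28 and 44.0 ± 3.84 FPKM (adjusted p = 6.5e-05). In these 3 genes all 3D libraries lay below all 2D libraries. Shc1, at 65.8 ± 15.9 FPKM in 2D and 46.9 ± 14.5 FPKM in 3D, was not called (adjusted p = 0.17) except in the values as deposited (adjusted p = 0.015, range over all 17 alternatives 0.015 to 0.95).

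Of 12 tested feedback inhibitors and target genes, 7 were called higher and 2 lower in 3D, with a median log2 fold change of 1.25. The shares over all genes tested were 21.2% higher and 20.3% lower. Several of these calls were lost under alternatives, as given below for each gene. The phosphatase gene Dusp6 was at 17.1, 82.7, 77.8 and 23.1 FPKM in 2D and at 365, 224, 185 and 188 FPKM in 3D (log2 fold change 2.49, SE 0.55, adjusted p = 0.0082). Within 2D, the libraries of mice 3 and 4 were the high ones, and without them the log2 fold change was 3.44 (adjusted p = 6.5e-04), while with only mice 4 and 5 the call was lost (adjusted p = 0.0997, range over all 17 alternatives 2.4e-04 to 0.171). Spred1, an inhibitor of ERK activation, was at 22.2, 28.9, 34.7 and 21.1 FPKM in 2D and at 119, 84.4, 128 and 106 FPKM in 3D. All 3D libraries were above all 2D libraries, and the log2 fold change was 2.00 (SE 0.19, adjusted p = 1.4e-04). Etv1, a transcription factor gene induced by FGF signals, was at 0.287 to 0.733 FPKM in 2D and at 13.7, 3.41, 3.67 and 7.51 FPKM in 3D (log2 fold change 2.24, adjusted p = 0.0027).

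The lower calls in this list were Etv4 and Spred3. Etv4, of the same factor family as Etv1, had means of 21.2 ± 6.52 FPKM in 2D and 10.8 ± 3.71 FPKM in 3D (SD, n = 4 each). Its libraries overlapped, and the call (log2 fold change -0.93, adjusted p = 0.047) was lost in 9 of 17 alternatives. Spred3 was at 6.60 to 9.51 FPKM in 2D and at 2.52 to 5.58 FPKM in 3D (log2 fold change -0.80, adjusted p = 0.022), and 7 of 17 alternatives lost the call.

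The next 5 genes of the list are named because of their values, after these were seen. Spry1, a Sprouty inhibitor, was at 17.5, 7.41, 8.26 and 17.8 FPKM in 2D and at 71.5, 44.0, 51.1 and 37.6 FPKM in 3D (log2 fold change 1.98, adjusted p = 0.0023). Here the 2D libraries of mice 2 and 5 were the high ones, and without those of mice 3 and 4 the log2 fold change was 1.40, and with only mice 4 and 5 the call was lost (adjusted p = 0.057, range over all 17 alternatives 0.0012 to 0.138). Spred2 had means of 10.4 ± 1.08 FPKM in 2D and 23.0 ± 5.79 FPKM in 3D (SD, n = 4 each, adjusted p = 0.0018). The early response gene Egr1 had means of 14.2 ± 9.62 and 36.4 ± 8.84 FPKM (adjusted p = 0.040), and 8 of 17 alternatives lost the call. Its log2 fold change was 1.53 with all libraries and 2.37 without the 2D libraries of mice 3 and 4, its high ones in that culture. Etv5 was at 23.9, 15.2, 21.1 and 22.2 FPKM in 2D and at 119.6, 29.7, 28.1 and 28.8 FPKM in 3D. It was not called with the 3D library of mouse 1 (log2 fold change 0.99, adjusted p = 0.13) and was called without it (0.49, adjusted p = 0.043, range over all 17 alternatives 0.030 to 0.36). Il17rd, an inhibitor at the membrane, was at 2.33, 2.70, 3.41 and 2.55 FPKM in 2D and at 39.8, 1.33, 0.408 and 0.252 FPKM in 3D. The 3D library of mouse 1 was above all 2D libraries and the other 3D libraries were below them, so that the log2 fold change was -0.05 with it (adjusted p = 0.97) and -1.22 without it (adjusted p = 0.0067, range over all 17 alternatives 0.0067 to 0.99). Of the other tested Sprouty genes, Spry2 was called higher (limma log2 fold change 1.45, adjusted p = 0.035). Its range over the alternatives is not reported here. Spry4 was not called (limma log2 fold change -0.28, adjusted p = 0.63). It was at 3.72, 7.21, 10.5 and 4.61 FPKM in 2D and at 11.6, 3.07, 3.48 and 4.05 FPKM in 3D.

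**Figure D5:**
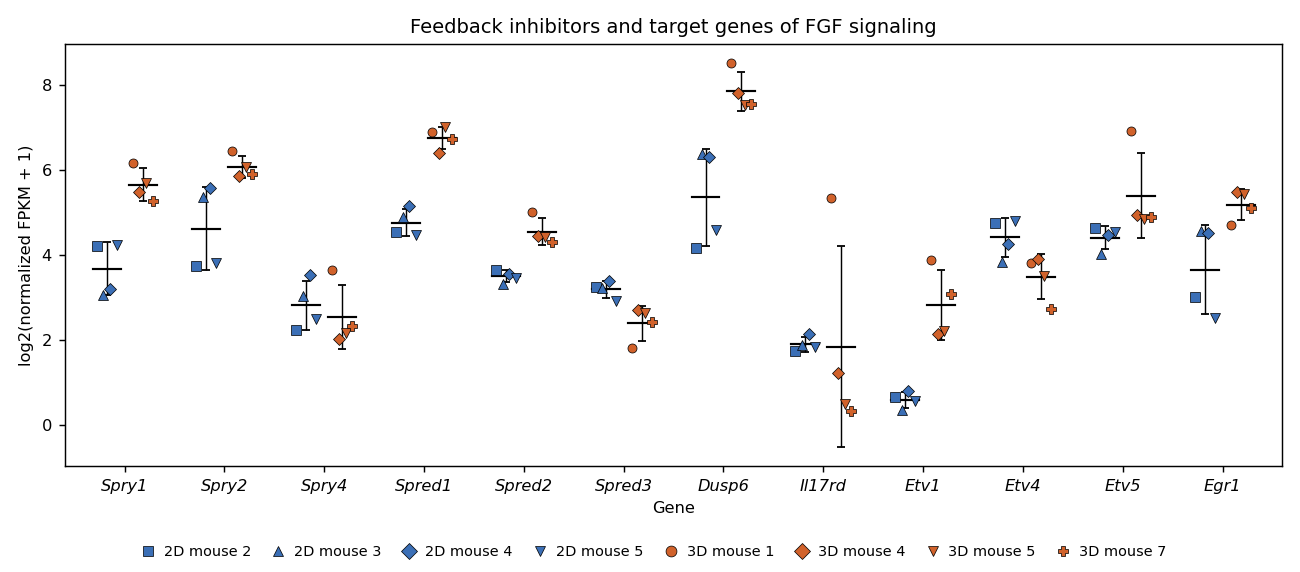
Levels of the 12 tested feedback inhibitors and target genes as log2(normalized FPKM + 1), with 1 point per library, blue for 2D and orange for 3D, and the mean and SD of the 4 libraries of each culture as lines. Dusp6 reaches 185 to 365 FPKM in 3D. The 3D library of mouse 1 is the highest in 3D for Dusp6, Spry1, Spry2, Spry4, Spred2, Etv1, Etv5 and Il17rd. It is not the highest for Spred1, Spred3, Etv4 and Egr1.

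Both genes for the epithelial splicing factors that select the epithelial form of Fgfr2 were called higher. Esrp1 was listed at 0 in each 2D library and reached 33.2, 36.0, 42.3 and 39.8 FPKM in 3D, at least 512-fold higher by its deposited level against the FPKM of 3 fragments (adjusted p = 1.5e-07). Esrp2 had means of 5.93 ± 1.26 FPKM in 2D and 13.6 ± 3.14 FPKM in 3D (SD, n = 4 each, log2 fold change 1.07, adjusted p = 0.0046). Fgfr2 was likewise higher in every 3D library than in every 2D library. The libraries of the cultures did not overlap in 42.5% of all genes tested. A link between the splicing factor genes and Fgfr2 was not tested.

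Marker genes of cell types moved with the cultures in the same libraries. Of 12 epithelial markers, 11 were called higher in 3D. Their summed level was 32.0, 176, 694 and 32.1 FPKM in 2D and 2693, 3090, 3144 and 2867 FPKM in 3D, where Krt8 or Krt18 was the most abundant and none was at 0. In 2D, Elf3 was at 0 in every library, and Epcam, Cldn3 and Grhl2 each in 3 libraries. Of 11 stromal markers, 10 were called lower in 3D. Their summed level was 3270, 2149, 2186 and 4766 FPKM in 2D, where Col1a2 led, and 8.74, 4.76, 5.32 and 8.18 FPKM in 3D, where Twist1 led and Pdgfrb, Dcn and Lum were at 0 in every library. The 3D libraries, labelled as mesenchymal stem cells, thus held high epithelial and low stromal marker levels. Of 6 mesothelial markers, 0 were called by limma, and their summed level in 3D was 1.57, 33.7, 5.78 and 6.23 FPKM, led by Wt1 in mouse 1 and by Msln in the others.

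Of 7 adipocyte markers, Adipoq and Lep were at 0 in all 8 libraries, and Lpl and Pparg were called lower in 3D, with a summed level of 12.9 to 48.2 FPKM in 2D and 0.0799 to 0.546 FPKM in 3D. The 5 endothelial markers summed to at most 6.79 FPKM, led by Kdr, and 0 were called. The 6 leukocyte markers summed to 2.07 to 21.3 FPKM in 2D and 6.25 to 42.3 FPKM in 3D, with Cd68 called higher, Ptprc below 0.1 FPKM on average in each culture and Cd3e at 0 throughout. Lyz2 led that sum in the 2D library of mouse 2 (18.7 FPKM), and it was at 0 in every 3D library, as was Adgre1, but neither was called. The 7 epididymal markers summed to at most 4.21 FPKM, in the 3D library of mouse 1, with Lcn5, Adam7 and Defb42 at 0 throughout. The part of cell types in the differences of the FGF genes was not tested, and the culture and its cell types cannot be told apart in these 8 libraries.

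For each called FGF gene, the 2 genes most like it in normalized log2 level were sought by Pearson's r over the 8 libraries, among genes whose mean reached 1 FPKM. These r values describe the libraries only, since the cultures form 2 separate groups that fix most of each r. They were Gabrb1 and Sync for Fgf2 (r = 0.999 each), Serpinb9b and Cyp2d22 for Fgf7 (r = 0.998 each), and Nbl1 and Spire1 for Fgfr1 (r = 0.995 and 0.986). For Fgfr2 they were Etl4 and Zfp608 (r = 0.997 and 0.996), and for Fgfbp1 they were Tfap2c and Ankrd37 (r = 0.993 and 0.989). Fgf1 and Fgfr3 shared 2610005L07Rik (r = 0.989 and 0.994), beside Gm3435 for Fgf1 (r = 0.993) and Ccdc17 for Fgfr3 (r = 0.994). For Fgfr4 they were Mgat4a and Cyp24a1 (r = 0.996 and 0.995).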

How the data were processed

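The authors sequenced directional, rRNA-depleted libraries in pairs of reads and used TopHat (mm10) and Cufflinks. The deposited values are FPKM per gene, without counts, and the annotation used is not given in the sources used here. Of 24346 genes, 5484 at 0 in every library were left out, and 18862 were quantile normalized and converted to log2(FPKM + 1). Cultures were compared with limma 3.58.1 (R 4.3.3) with an intensity trend and Benjamini-Hochberg adjustment. The model was tested on simulated data. Mice 4 and 5 pair the cultures by animal. Over 12577 genes, deviations from the culture means of a mouse's libraries correlated at -0.05 (mouse 4) and -0.11 (mouse 5). With mouse as a random effect, the correlation was -0.04 over 18862 genes. Depth was estimated from steps between low FPKM values of 3277 genes of at least 3000 nt (GENCODE M21). It was 16.4 to 17.4 M fragments in 2D and 14.6 to 15.6 M in 3D, with 73.9% to 79.3% of low values within 0.15 of a whole multiple. Limits of 3 fragments cover counting error only. The members and lists were chosen with earlier results of these data known. From each pathway list, up to 2 called genes with the largest rise, up to 2 with the largest fall and those with a mean of at least 50 FPKM are named, except 1 that is not reported here. As alternatives, the fit was repeated on the FPKM as deposited, without the trend, on genes averaging 1 FPKM or more, with 0.1 added in place of 1, with mouse as block or random effect, on mice 4 and 5 alone, and with each library omitted. Leaving out the 2D libraries of mice 3 and 4, alone or with the 3D library of mouse 1, was added after seeing the data.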

Additional observations from a re-analysis of the deposited data

Results flagged for a closer look

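In 73 groups of 4 libraries, on the scale of log2(normalized FPKM + 1), the highest or lowest library was compared with its nearest neighbour, and 6 stood far from the others relative to the group's range. Chance gives this for about 1 in 20 groups, a rate that does not apply to Fgf2 and Fgfr4, where the other libraries at 0 fix the result. Nor does it apply to Spry1, Spred2, Egr1, Etv5 and Il17rd, which were named after their values were seen. On this scale the 3D library of mouse 1 was among them 3 times, with 41.4 FPKM of Fgf1, 119.6 FPKM of Etv5 and, at the low end, 0.222 FPKM of Fgf18. In the 3D library of mouse 7, Fgf2 was at 0.134 FPKM while the other 3D libraries were at 0. In the 2D library of mouse 3, Fgfr4 was at 0.0185 FPKM while the other 2D libraries were at 0. Frs2 was at 11.7 FPKM in the 3D library of mouse 4, above 8.72 to 9.10 FPKM in the other 3D libraries. What sets these libraries apart was not tested.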

How the results depend on the processing

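With the mouse number as a block, limma called 0 genes higher and 0 lower, among ligands, receptors and pathway genes alike. At an unadjusted p under 0.05 it had 5216 of all genes, 2 ligands, 4 receptors and 25 pathway genes. The block leaves 1 residual degree of freedom. With only mice 4 and 5, 1788 genes were called higher and 1432 lower, with 0 ligands higher and 9 pathway genes higher and 5 lower, from fewer samples. Without the 2D libraries of mice 3 and 4, 0 ligands were called higher, and the cause was not tested. With each library left out in turn, the count of ligands called higher ran from 0 to 1, with 0 when the 2D library of mouse 2 or of mouse 5 was missing. Apart from the block and the fit to mice 4 and 5, genes called higher ran from 3393 to 4279 and lower from 3204 to 4269, and pathway genes from 12 to 18 higher and from 13 to 18 lower. No called gene of the 10 changed its sign under any alternative. The calls of Fgf2, Fgf7, Fgfr1 and Fgfr2 were lost only under the block, and their adjusted p reached at most 0.0379 under the other alternatives. Fgf10 and Fgfr4 fell under the minimum of 1 FPKM and have no value there. At the estimated depth, differences of Fgf10 and of the lowest 3D values of Fgf7 rest on few fragments.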
